A study of Mus musculus with 2 samples.

Results

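HIF1α and HIF2α, the oxygen-sensitive factors encoded by Hif1a and Epas1, and 8 genes that they are known to induce outside glycolysis (Car9, Ndufa4l2, Egln3, Bnip3, Ankrd37, Vegfa, Adm and Ddit4) were followed in mammary basal cells grown with or without macrophages. The 10 genes were chosen by name, with their difference between these libraries already known, out of 49492 genes in the count table. All 10 passed the minimum of 10 reads summed over the libraries, as did 19233 genes in all. The study sorted basal cells (lin-, CD24+, CD29 high) from mammary glands of adult wild-type (WT) female mice and grew them in a 3D matrix gel for 11 to 14 days, and the comparison asks what M2-like macrophages change in them. The ctrl library came from cells grown alone, in a medium with EGF and an insulin supplement. The M2 library came from wells that also held macrophages grown from bone marrow of C57/B6 mice and polarised with IL-4 and IL-13, held apart from the gel by a transwell insert and renewed every 2 days. RNA was taken from whole colonies and organoids, which hold basal and luminal cells, so that fewer cells of a type and less RNA per cell cannot be told apart.

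In well-oxygenated cells, prolyl hydroxylases mark the HIFα subunits for destruction through the VHL ubiquitin ligase. When oxygen is short, or when the hydroxylases are otherwise slowed, HIFα proteins persist, pair with ARNT and bind short DNA elements at genes for blood vessel growth, pH control, mitochondrial remodelling and glycolysis. Much of this control acts on protein stability, which RNA does not measure. In the mammary gland HIF1α is known for its part in secretory differentiation.

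The ctrl library held 26912610 reads in genes and the M2 library 29413844. There was 1 library per group, so the spread between replicate cultures is unknown, and a difference between the conditions and a difference between these 2 cultures cannot be told apart. Intervals are 95% intervals for counting error only. Levels were compared between genes as TPM (reads scaled by exon length and then by their sum within a library). Differences between libraries are given as log2 fold differences of reads scaled by the trimmed mean of M values (TMM), M2 over ctrl.

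The epithelial label was checked first. The basal markers Krt5 (2438 TPM in ctrl and 3341 in M2) and Krt14 (4416 and 3433 TPM) and the luminal marker Krt8 (1568 and 1762 TPM) were abundant in both libraries. Of 12 macrophage genes, 5 had 0 reads in both libraries (Ptprc, Adgre1, Fcer1g, Tyrobp and Chil3), and the list summed to 64.8 CPM (reads scaled to a common library size) in ctrl and 81.8 in M2, chiefly through Arg1 and Cd68. Without these 2 genes, set aside once their values were known, it summed to 3.79 and 3.50 CPM. The 8 endothelial genes summed to 2.37 and 3.30 CPM, with Cldn5 at 0 reads in both libraries. The 6 basal genes summed to 7466 and 7493 CPM, but members went both ways: Krt5 differed by 0.50 and Krt14 by -0.32 on the log2 scale, and 1 gene, Oxtr (8324 and 1920 reads; -2.18), was at least 2-fold lower in M2. The 8 luminal genes summed to 3156 and 2420 CPM, and 5 of them (Elf5, Kit, Foxa1, Esr1 and Prlr) were at least 2-fold lower in M2. The part of these marker differences in the results given here was not tested.

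Of the 10 genes, 6 were at least 2-fold higher in M2 and 0 were lower, where 9.53% of all genes tested were at least 2-fold higher and 7.82% lower. The 6 genes were Ndufa4l2, Car9, Egln3, Vegfa, Bnip3 and Adm, and 5 of them, all but Adm, were at least 4-fold higher, as were 3.2% of all genes (2.57% were 4-fold lower). At 1.5-fold, 9 of the 10 genes were higher, against 16.5% of all genes higher and 14.8% lower. Ndufa4l2 did not reach 1 CPM in both libraries. Of the 9 members that did, 5 were at least 2-fold higher and 0 lower. Of all genes that did, 5.52% were at least 2-fold higher and 3.97% lower. Epas1, Ddit4, Ankrd37 and Hif1a stayed under 2-fold. The genes were chosen for this pattern, so the counts describe them and nothing was tested. Together the 10 genes took 0.0440% of the reads in ctrl and 0.111% in M2.

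**Figure D1:**
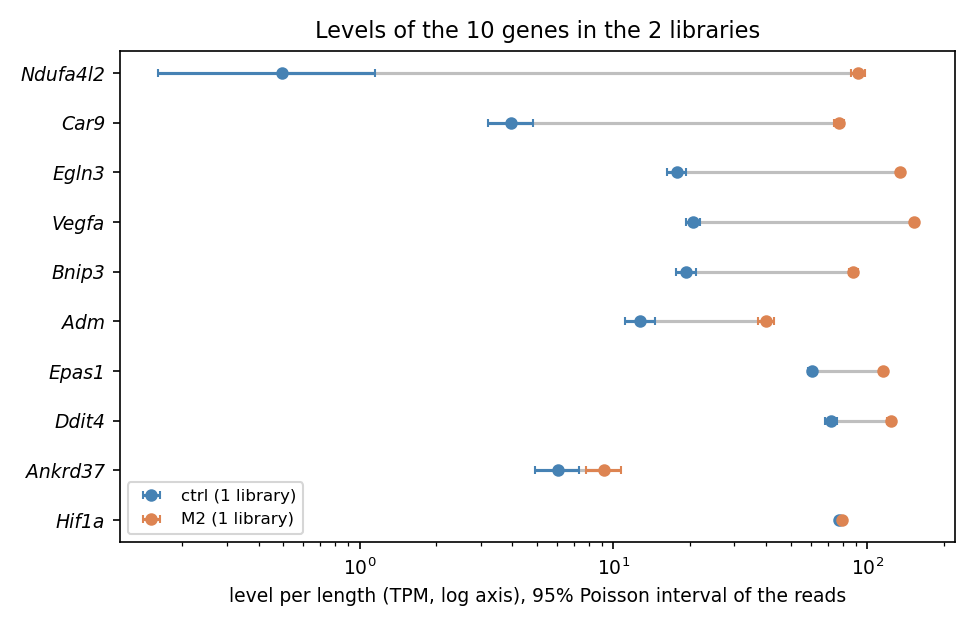
Level per length (TPM, log axis) of the 10 genes in the ctrl library (blue) and the M2 library (orange), 1 library each, ordered by log2 fold difference, with 95% Poisson intervals of the reads. The gap is widest for Ndufa4l2 (0.493 and 91.8 TPM), and the Hif1a points lie side by side at 77.7 and 79.7 TPM.

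The order of the levels changed between the libraries. In ctrl the most abundant of the 10 transcripts were Hif1a (77.7 TPM), Ddit4 (72.0 TPM) and Epas1 (60.7 TPM), and the intervals of Hif1a and Ddit4 overlapped. Vegfa, Bnip3 and Egln3 followed at 20.6, 19.4 and 17.7 TPM, each overlapping its neighbour, then Adm at 12.7, Ankrd37 at 6.03, Car9 at 3.95 and Ndufa4l2 at 0.493 TPM. In M2 the order began with Vegfa (153 TPM), Egln3 (135 TPM), Ddit4 (124 TPM) and Epas1 (116 TPM), 4 genes over 100 TPM where ctrl had 0. Ndufa4l2 (91.8 TPM) and Bnip3 (88.1 TPM) overlapped, as did Hif1a (79.7 TPM) and Car9 (77.3 TPM), and Adm (39.9 TPM) and Ankrd37 (9.15 TPM) came last.

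The promoters of the genes were searched for the core letters of the HIF binding element, because members that differ together can be read side by side there. RefSeq windows on GRCm38.p6, from 250 bases before to 50 after a transcript start, were matched for 8 of the 10 genes (9 windows). Epas1 and Ndufa4l2 were not matched. The upstream 250 bases of 4 genes that were at least 2-fold higher in M2, and of Hif1a, which was nearly level, are shown 5′ to 3′ on the strand of the gene, with the letters ACGTG or GCGTG, on either strand, in capitals. In these windows the letters lie before a transcript start of genes with large differences and of a gene with almost none. For Hif1a that start is inside the gene. Vegfa, also at least 2-fold higher, is not printed, and its window at the 5′ end of the gene held neither form. Car9 lies on the plus strand (chr4:43506776-43507025), Egln3 on the minus strand (chr12:54203875-54204124), Bnip3 on the minus strand (chr7:138909507-138909756), Adm on the plus strand (chr7:110627407-110627656) and Hif1a on the plus strand (chr12:73907617-73907866).
Car9: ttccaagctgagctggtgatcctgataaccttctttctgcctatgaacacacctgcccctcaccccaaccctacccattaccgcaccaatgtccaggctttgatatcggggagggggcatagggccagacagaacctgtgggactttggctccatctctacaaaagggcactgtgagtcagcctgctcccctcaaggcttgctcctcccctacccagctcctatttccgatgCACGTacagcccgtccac
Egln3: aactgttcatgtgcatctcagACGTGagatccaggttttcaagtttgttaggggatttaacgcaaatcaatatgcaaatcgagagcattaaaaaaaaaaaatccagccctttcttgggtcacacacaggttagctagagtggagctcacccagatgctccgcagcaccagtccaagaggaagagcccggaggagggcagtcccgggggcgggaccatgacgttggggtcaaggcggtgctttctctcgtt
Bnip3: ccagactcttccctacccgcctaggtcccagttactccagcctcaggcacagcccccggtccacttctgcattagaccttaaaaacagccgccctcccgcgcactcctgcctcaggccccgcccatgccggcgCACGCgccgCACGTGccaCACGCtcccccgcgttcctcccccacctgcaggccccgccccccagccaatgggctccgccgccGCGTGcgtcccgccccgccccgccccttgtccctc
Adm: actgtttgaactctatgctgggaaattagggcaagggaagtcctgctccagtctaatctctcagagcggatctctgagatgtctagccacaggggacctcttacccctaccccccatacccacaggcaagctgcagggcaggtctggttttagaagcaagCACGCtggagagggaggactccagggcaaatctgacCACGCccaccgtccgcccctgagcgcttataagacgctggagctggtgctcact
Hif1a: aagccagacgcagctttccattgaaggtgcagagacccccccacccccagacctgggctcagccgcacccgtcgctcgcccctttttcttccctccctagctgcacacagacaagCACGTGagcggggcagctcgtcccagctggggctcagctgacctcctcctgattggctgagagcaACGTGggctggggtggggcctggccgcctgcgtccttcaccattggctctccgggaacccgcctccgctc

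In Car9 the single match began 18 bases before the start. The last 60 of its printed bases are exonic in the count table, whose gene model begins further upstream, and the window overlaps the antisense gene Gm12454. The match in Egln3 began 229 bases before the start, outside any gene of the table. Bnip3 held the most matches. The last 13 of its printed bases are exonic in the table. Its palindrome CACGTG counts on both strands, at 108 and 107 bases before the start, and 3 GCGTG matches began at 117, 99 and 35 bases. Adm held GCGTG alone, at 90 and 54 bases, in a window that overlaps another gene of the table, Gm28863. Hif1a held ACGTG at 135, 134 and 70 bases before this start, which lies 6492 bases inside the gene as the table draws it, between exons of that model.

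Of the other matched genes, Ddit4 and Ankrd37 held both forms, and the Vegfa window at the 5′ end of the gene held neither. A Vegfa window at an internal start held both, and there they lay in an exon. The Ankrd37 window also lies at an internal start, 5857 bases inside the annotated gene, and overlaps Lrp2bp. Its ACGTG match 6 bases before that start lay in an exon, and the one at 241 bases did not. Either form occurred in windows of all 8 matched genes, in 8 of 9 windows, against 43.8% of all 32851 RefSeq windows and 59.0% of the windows of genes with at least 10 reads here. ACGTG occurred in 7 of the 9 windows, against 19.6% and 24.0% of those windows, and GCGTG in 5 of the 9, against 32.4% and 47.8%. The letters contain a CpG, and the windows of the 8 genes held a median of 16 CpG, against 7 over all windows and 19 over those of genes with at least 10 reads. The 3 genes under 2-fold with a matched window, Hif1a, Ddit4 and Ankrd37, all held ACGTG, and Adm, at least 2-fold higher, did not. A match is a description of these letters, and binding was not measured.

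The factors themselves differed from each other. Hif1a (on GRCm38, as for all genes here, chromosome 12, 73901375 to 73947530) had 4836 reads in ctrl against 5370 in M2, with a log2 fold difference of 0.08 (0.03 to 0.14). Its reads were nearly level between the libraries, and a scaling by total reads brought the value to 0.02. Epas1 (chromosome 17, 86753907 to 86833410) had 3402 and 7027 reads, a log2 fold difference of 0.98 (0.92 to 1.04), and 2-fold lay within that interval. The ratio of Epas1 to Hif1a, which does not depend on how libraries are scaled, was 0.781 in ctrl against 1.45 in M2 (log2 change 0.90, 0.81 to 0.98). Hif1a was thus the more abundant factor transcript in ctrl and Epas1 in M2. Of the partner subunits, Arnt had 2764 and 2278 reads, a log2 fold difference of -0.35 (-0.43 to -0.27), and Arnt2, with 81 and 39 reads and a value of -1.10, was the subunit at least 2-fold lower. Hif3a, whose product can oppose the other HIFα subunits, had 1 and 8 reads, too few to be compared. Epas1 is also known from endothelial cells and macrophages, and the part of such cells in its difference was not tested.

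Egln3 encodes the prolyl hydroxylase PHD3, which acts on HIFα and is itself a HIF target. Egln3 (chromosome 12, 54178981 to 54203860) had 499 reads in ctrl against 4115 in M2, with a log2 fold difference of 2.97 (2.84 to 3.11). The other hydroxylases differed less. Egln1, which encodes the main oxygen sensor PHD2 and is also a known target, had 1229 and 2634 reads and a value of 1.03 (0.93 to 1.13), so that 2-fold lay within its interval. Egln2, which encodes PHD1, had 1546 and 1814 reads and a value of 0.16 (0.06 to 0.26). Egln3 stood at 0.340 of the Egln2 level in ctrl and at 2.39 times that level in M2, and it passed Egln1 as well, from 0.548 to 2.11. It went from the lowest of the 3 hydroxylase transcripts to the highest.

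The remaining genes of HIF control all stayed under 2-fold. Of 14 genes in this list, with Egln1, Egln2 and Egln3 among them, 2 (Egln3 and Egln1; 14.3%) were at least 2-fold higher and 0 lower. Over all genes tested, 9.53% were higher and 7.82% lower. The list median was 0.20, against -0.0032 over all genes tested. Vhl, the ubiquitin ligase subunit that recognises hydroxylated HIFα, differed by 0.25, and the other parts of that ligase, Elob, Eloc, Cul2 and Rbx1, by 0.25, 0.62, 0.35 and 0.06 on the log2 scale. Hif1an, the asparagine hydroxylase that limits HIF activity, stood at -0.23. The coactivators Ep300 and Crebbp stood at -0.04 and -0.13, and Cited2, the most abundant transcript of this list at 288 and 363 TPM, at 0.38. Siah1a and Siah2, ubiquitin ligases for the hydroxylases, stood at -0.13 and 0.07.

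Car9 encodes a carbonic anhydrase on the outer cell surface that helps to clear acid, and it is widely used as a marker of hypoxic tissue. Car9 (chromosome 4, 43506966 to 43513729) had 96 reads in ctrl against 2034 in M2, with a log2 fold difference of 4.32 (4.04 to 4.65). This was the 82nd highest value of the genes tested. Car12, the other surface carbonic anhydrase of epithelia and also a known hypoxia target, was the more abundant in ctrl and differed by 0.72 (3776 and 6545 reads). Car9 stood at 8.38% of the Car12 level per length in ctrl against 102% in M2 (log2 change 3.61, 3.31 to 3.93). The cytosolic Car2 and Car13 differed by 1.31 and 0.94, and Car14 had 86 and 70 reads.

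Ndufa4l2 encodes a mitochondrial protein that dampens respiration in hypoxia, and its paralog Ndufa4 encodes a regular subunit of cytochrome oxidase. Ndufa4l2 (chromosome 10, 127514939 to 127517152) had 5 reads in ctrl against 1007 in M2, with a log2 fold difference of 7.32 (6.36 to 9.21), the 7th highest of all genes tested. The width of the interval comes from the 5 ctrl reads. With pseudocounts of 5 and 0.5 in place of 1, the value was 6.59 and 7.45. Ndufa4 had 2022 and 1871 reads and a value of -0.18 (-0.27 to -0.09). The paralogs thus stood far apart in ctrl, where Ndufa4l2 was at 0.356% of the Ndufa4 level, and close in M2, where it was at 77.4%. Cox4i2, a known hypoxia-induced isoform of another cytochrome oxidase subunit, had 49 and 181 reads and a value of 1.79 (1.35 to 2.30). Ndufa4l2 is also known as a pericyte gene, and of the 7 pericyte genes, 5 with at least 10 reads, 0 were at least 2-fold higher in M2 and 3 were lower (Pdgfrb, Abcc9 and Notch3), with sums of 372 CPM in ctrl and 175 in M2. Notch3 made up most of both sums (358 and 168 CPM), and without it, a choice made with its value known, the list summed to 14.0 and 6.77 CPM. The part of pericytes in the Ndufa4l2 difference was not tested. Higd1b, also of the 7 pericyte genes, had 1 read in ctrl and 0 in M2.

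Bnip3 encodes an outer mitochondrial membrane protein that marks mitochondria for removal. Bnip3 (chromosome 7, 138890836 to 138909519) had 463 reads in ctrl against 2279 in M2, with a log2 fold difference of 2.23 (2.09 to 2.38). Its relative Bnip3l had 3175 and 5831 reads and a value of 0.81 (0.75 to 0.87). Bnip3l remained the more abundant of the pair: the ratio of Bnip3 to Bnip3l was 0.248 in ctrl against 0.666 in M2 (log2 change 1.42, 1.26 to 1.58). Of the annotated exon bases of Bnip3, 504 of 2265 are shared with the antisense gene Gm45507 (154 and 868 reads). The use of strand in counting is not given in the sources used here, so reads of the pair cannot be told apart there. The same holds for Car9 with Gm12454 (214 of 2304 bases; 123 and 485 reads of Gm12454), Hif1a with Gm15283 (330 of 5896 bases), Ndufa4l2 with Shmt2 (30 of 960 bases) and Ankrd37 with Lrp2bp and Ufsp2 (349 and 57 of 1539 bases). The other 5 of the 10 genes share no exon base with another gene of the table.

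Vegfa and Adm encode secreted factors that act on blood vessels. Vegfa (chromosome 17, 46016993 to 46032369) had 934 reads in ctrl against 7510 in M2, with a log2 fold difference of 2.94 (2.84 to 3.04), and it was the most abundant of the 10 genes per length in M2. The other ligands of the family did not share this size of difference. Pgf had 2849 and 3156 reads (0.08), Vegfb 214 and 266 (0.24), Vegfc 79 and 247 (1.56) and Vegfd 88 and 46 (-0.99). In ctrl the Vegfa level was 12.1% of the Pgf level, and in M2 it was 87.9%, a log2 change of 2.86 (2.74 to 2.98).

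Adm (adrenomedullin; chromosome 7, 110627661 to 110629820) had 218 reads in ctrl against 739 in M2, with a log2 fold difference of 1.69 (1.47 to 1.92). Its relative Adm2 had 4 and 100 reads, a value of 4.27 (3.17 to 6.48). Adm was the more abundant of the pair in both libraries, with a ratio of 35.1 in ctrl and 4.76 in M2.

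The receptors for these factors were read from a list of 8 genes, of which 7 had at least 10 reads, 3 were at least 2-fold higher (Flt1, Nrp2 and Ackr3) and 1 was lower (Kdr). Flt1, a VEGF receptor and itself a known HIF target, had 158 reads in ctrl against 3263 in M2, with a log2 fold difference of 4.29 (4.07 to 4.54), close to that of Car9. Kdr, the main signalling receptor of VEGF-A in endothelium, had 11 and 0 reads. Of the other endothelial markers Cdh5 had 11 and 2 reads, Pecam1 33 and 76, Vwf 4 and 12, and Tek 2 and 3. Of 4 endothelial genes with at least 10 reads, 2 (Pecam1 and Vwf) were at least 2-fold higher and 2 (Kdr and Cdh5) lower. The coreceptor Nrp2 had 1048 and 2485 reads (1.18), and Nrp1 76 and 59. The adrenomedullin receptor Calcrl had 22 and 35 reads. Its partner Ramp2 was well expressed, with 1844 and 1436 reads (-0.43), while Ramp3 had 1 and 0 reads. Ackr3, a scavenging receptor that also binds adrenomedullin, had 161 and 361 reads (1.09).

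Ddit4 and Ankrd37 differed least among the targets. Ddit4 (REDD1, an inhibitor of mTORC1; chromosome 10, 59949675 to 59951770) had 1282 reads in ctrl against 2391 in M2, with a log2 fold difference of 0.83 (0.73 to 0.93). Its relative Ddit4l, at lower levels, had 156 and 505 reads and a value of 1.62 (1.36 to 1.89). Ddit4 is also known to respond to the integrated stress response and to glucocorticoids. Of 8 integrated stress genes, 0 were at least 2-fold higher and 1 was lower (Atf3, -1.80), with a median of 0.05. Chac1 stood highest at 0.81 (82 and 152 reads), Atf4 itself at 0.55 and Ddit3 at -0.08. Of 7 glucocorticoid-responsive genes, 2 were at least 2-fold higher (Sgk1, 1.21, and Klf9, 1.07) and 2 lower (Zbtb16, -1.46, and Dusp1, -1.04). Fkbp5 stood at 0.98, Tsc22d3 at -0.84 and the list median at -0.32. Over all genes tested, 9.53% were at least 2-fold higher and 7.82% lower. The part of either response in the Ddit4 difference was not tested. Ankrd37, a small ankyrin repeat protein known as a HIF1 target (chromosome 8, 45996902 to 46005707), had 98 and 161 reads and a value of 0.64 (0.28 to 1.02). It was the least abundant of the 10 in M2, and its interval ran from 1.21-fold to 2.03-fold.

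**Figure D2:**
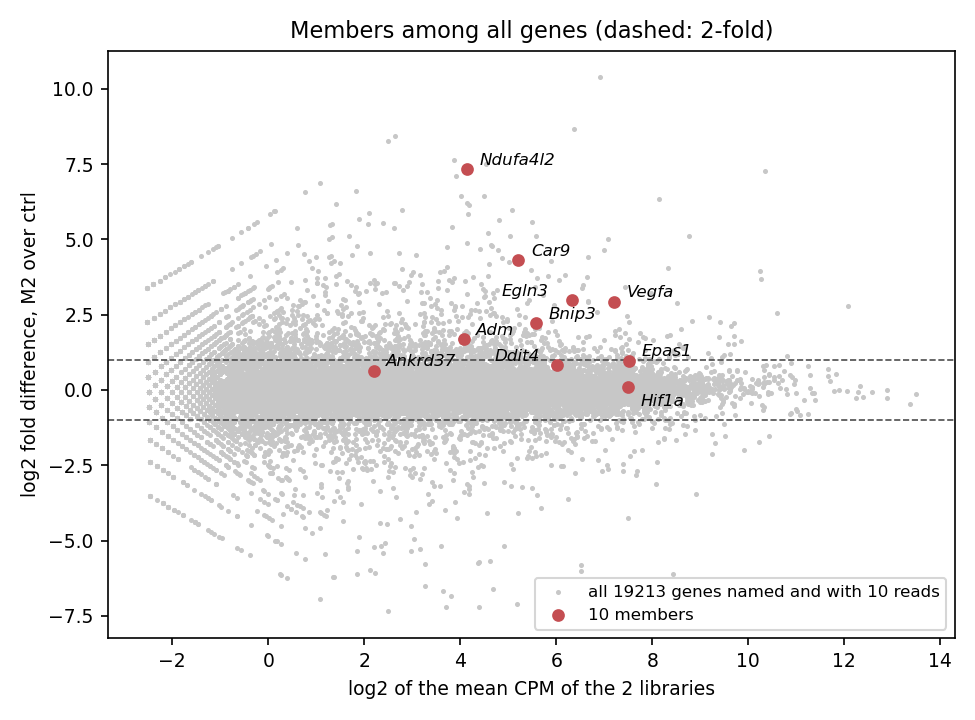
Log2 fold difference (M2 over ctrl) against the log2 of the mean CPM of the libraries, for genes with at least 10 reads and an intact name (grey) and the 10 genes (red); dashed lines mark 2-fold. Ndufa4l2 at 7.32 and Car9 at 4.32 stand highest among the 10 genes, ranking 7th and 82nd of all genes tested, and Hif1a at 0.08 lies near 0.

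**Figure D3:**
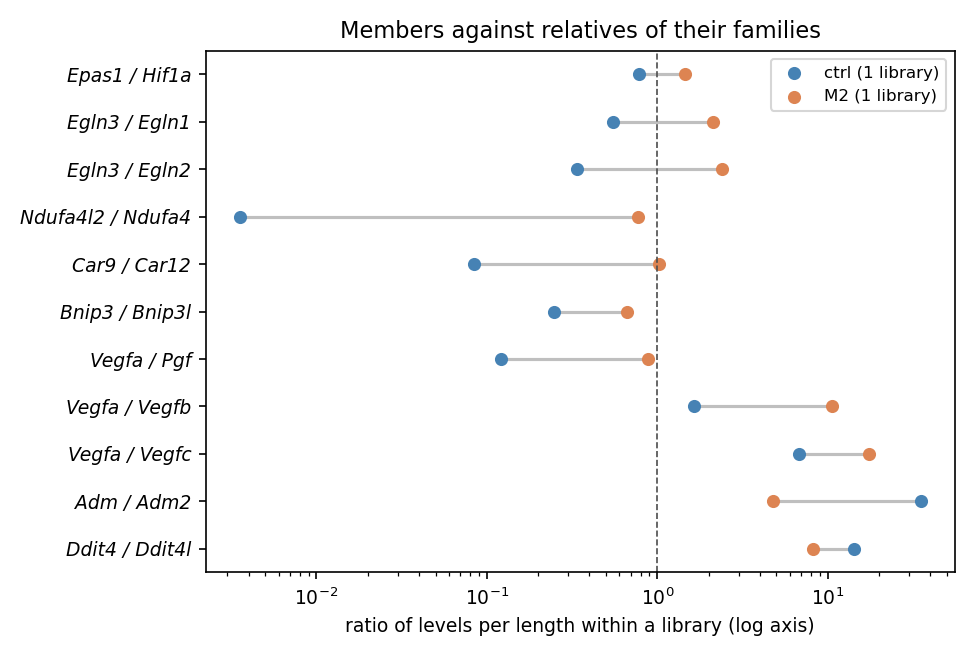
Ratio of levels per length within a library (log axis) of each gene to a relative of its family, in ctrl (blue) and M2 (orange), 1 library each; the dashed line marks equal levels. The ratio of Ndufa4l2 to Ndufa4 spans the widest range, from 0.00356 to 0.774, and those of Adm to Adm2 and Ddit4 to Ddit4l are lower in M2.

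To see how far the difference reached beyond the 10 genes, a list of 42 other known hypoxia targets outside glycolysis was read. Of these, 13 (31.0%) were at least 2-fold higher in M2 and 3 (7.14%) lower, against the 9.53% and 7.82% of all genes given above. The list median was 0.53. The list was drawn up with earlier results of these libraries known. The targets are described by role, in groups made after their values were seen, so differences between the groups were open to that choice and were not tested.

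Of 6 genes for collagen modification and crosslinking, 4 were at least 2-fold higher, with a median of 1.63. Loxl2, a lysyl oxidase, had 139 reads in ctrl against 929 in M2, with a log2 fold difference of 2.66 (2.41 to 2.94). P4ha2 (149 and 987 reads; 2.65) and P4ha1 (503 and 1661 reads; 1.65) encode catalytic subunits of collagen prolyl hydroxylase. Plod2, a collagen lysyl hydroxylase named after its value was seen, had 1277 and 4070 reads (1.60). Lox, also named after its value was seen, stood at 0.23 (678 and 837 reads), and Plod1 at 0.95. The fibroblast list, whose cells are a usual source of these enzymes, summed to 2972 CPM in ctrl and 2624 in M2, mostly through Postn (log2 fold difference -0.09). Without Postn, which was left out after its value was seen, it summed to 320 and 132 CPM. Of its 7 genes 3 were at least 2-fold lower (Col1a2, Col3a1 and Lum) and 1 higher (Dcn). Lum had only 10 and 3 reads, and its interval of -4.31 to 0.15 included no difference. Col1a1 (2057 and 1097 reads) stood at -0.98 and Pdgfra (607 and 822 reads) at 0.37. The part of fibroblasts in the result was not tested.

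Of 7 mitochondrial proteins, 3 were at least 2-fold higher (Fam162a, Cox4i2 and Ak4, the last named after its value was seen), with a median of 0.95. Fam162a, a hypoxia-inducible mitochondrial protein, had 374 and 1623 reads (2.05). Of 6 cell surface proteins 2 were higher, Flt1 and Nt5e, the adenosine-producing ectonucleotidase CD73 (792 and 2919 reads; 1.81). Ero1l, an oxidase for disulphide formation in the endoplasmic reticulum, had 1701 and 6854 reads (1.94).

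Secreted factors went both ways: the cytokine Mif, named after its value was seen, had 703 and 1708 reads (1.21), and 2 of 8 genes were at least 2-fold lower. Stc2, a secreted glycoprotein, had 9668 and 2572 reads, a log2 fold difference of -1.98 (-2.04 to -1.92), and Igfbp3, a binding protein of insulin-like growth factors, had 7972 and 3846 reads (-1.12). Both were among the most abundant targets in ctrl, at 177 and 241 TPM. Tmem45a (295 and 138 reads; -1.16) was the other target at least 2-fold lower, and the chemokine receptor Cxcr4 stood at -0.60 (1041 and 719 reads). Of 7 transcriptional and chromatin regulators, 0 were at least 2-fold higher or lower, and their values ran from -0.13 to 0.72.

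In the glycolytic arm, which holds the best known HIF targets, 14 of 20 genes were at least 2-fold higher and 0 lower. The shares over all genes tested were 9.53% and 7.82%. The list median of 1.15 lies between those of the 10 genes (1.96) and of the 42 other targets (0.53). The highest were the lactate exporter Slc16a3 (50 and 2563 reads, 5.58) and Pgk1 (8138 and 37275 reads, 2.13). The lowest were Slc2a3 (35 and 29 reads, -0.33) and Hk1 (10521 and 11320 reads, 0.04).

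**Figure D4:**
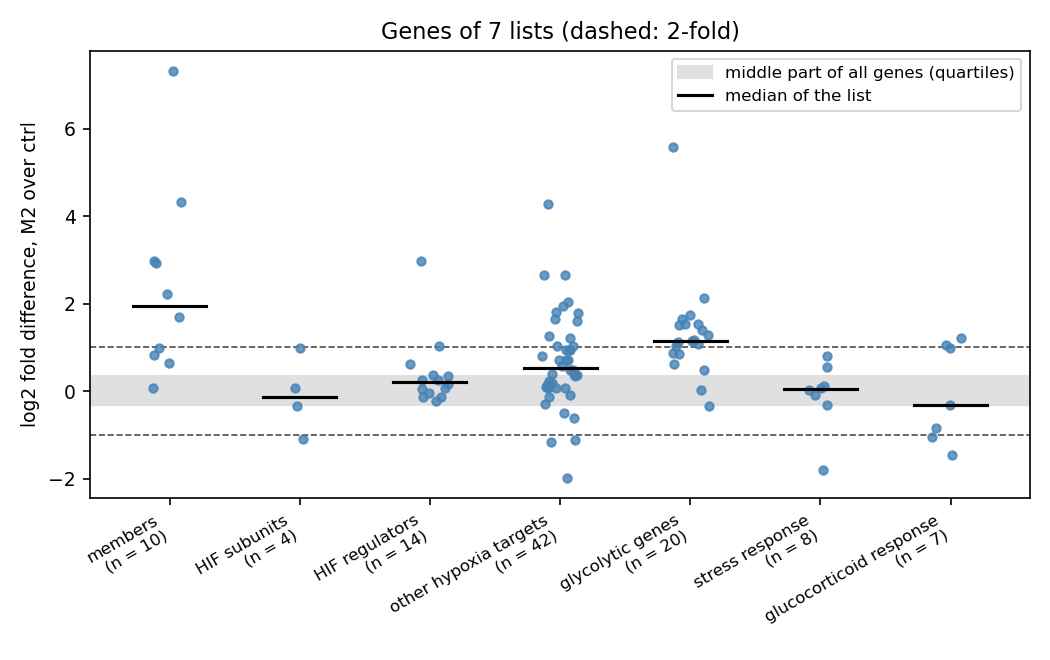
Log2 fold difference (M2 over ctrl) of each gene with at least 10 reads in 7 lists; points are genes, black bars list medians, the grey band the quartiles of all genes tested (-0.32 to 0.35), dashed lines 2-fold. The 10 genes have a median of 1.96, the HIF subunits -0.13 and the HIF regulators 0.20 (some genes appear in more than 1 list).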

How the data were processed

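Raw read counts per gene, as deposited by the authors without normalization, were used for 2 libraries, ctrl and M2, grouped by their titles. The submitters' processing notes name the build GRCm38 (mm10). The aligner, counter, annotation, use of strand and read filters are not given in the sources used here. The deposited table also lists exon coordinates and a summed exon length per gene, and all 10 genes overlap the GENCODE M21 gene of their name on the same strand. Elob and Eloc were matched to older symbols through RefSeq. A spreadsheet had turned 26 names into dates; these genes were kept in counts but not named.

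Genes with at least 10 reads over both libraries (19233) were compared. TMM factors from edgeR 4.0.16 (R 4.3.3) were 1.02 (ctrl) and 0.980 (M2), and a pseudocount of 1 was added before taking log2. The 95% intervals are Clopper-Pearson for differences (from the M2 share of a gene's reads), exact Poisson for levels, and conditional odds ratio for changes of a ratio (scipy 1.17.1). No molecular identifiers are stated, so intervals cover counting error only. TPM and CPM were computed from the reads. With 1 library per group no test was run and no p-value is given; DESeq2 was not run. Calls mean at least 2-fold. The functions were tested on simulated data. The members, lists and naming rule were chosen with earlier results of these data known: of HIF subunits and regulators all genes are named, of other lists up to 8 highest and 4 lowest and relatives of a member. The other scalings, pseudocounts, filters and fold thresholds are given in the closing section.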

Additional observations from a re-analysis of the deposited data

How the results depend on the processing

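The log2 fold differences of the 10 genes were recomputed under 3 kinds of change: 4 other scalings, pseudocounts of 0.5 and 5, and 2 other filters. The filters decide only which genes are compared, so the values under them equal the reported ones. Each gene kept its sign. Over genes and settings, 76 values stayed within the counting interval of the reported value, those under the filters among them by construction. The other 3 did not: Hif1a by total reads (0.02), and Hif1a and Epas1 by total reads without mitochondrial genes (0.01 and 0.91). These scalings moved the median of all genes to -0.06 and -0.07. With at least 1 CPM in both libraries Ndufa4l2 could not be compared, as ctrl held 5 reads. Of the 10 genes 6 were at least 2-fold higher under each scaling and pseudocount. With at least 1 CPM in both libraries, the number was 5 of 9.

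Of the 42 other targets, 13 were at least 2-fold higher and 3 lower in the main setting. By total reads, with or without mitochondrial genes, 11 were higher and 3 lower. At 4-fold, 4 (Flt1, Loxl2, P4ha2 and Fam162a) were higher and 0 lower, and at 1.5-fold 20 were higher and 4 lower. Over all genes the numbers higher and lower were 1832 and 1504. They were 806 and 579 with at least 1 CPM in both libraries, 3174 and 4001 with at least 1 read in either, 616 and 494 at 4-fold, and 3179 and 2842 at 1.5-fold, as each of these changes which genes can count or the threshold.

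No paired analysis was possible because there is a single library of ctrl and a single one of M2. No library was left out, for the same reason. Depth limits Ankrd37, Ndufa4l2 in ctrl, Adm2, Hif3a, Calcrl and Kdr, which had few reads.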
